A study of Mus musculus with 9 samples.

Results

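Mature B cells expressing *Ighd* were picked out of the single cell transcriptomes of mouse bone marrow by a rule on their own counts. A barcode, which stands for 1 droplet and usually 1 cell, was taken when it held at least 500 UMIs (unique molecular identifiers, each standing for 1 captured transcript) and at least 300 genes, with at most 10% of its UMIs from the 13 mitochondrial genes. It had to hold at least 1 UMI of *Ighd*, at least 2 UMIs of *Ms4a1*, *Cd79a* and *Cd79b* together, and 0 UMIs of *Rag1*, *Vpreb1*, *Igll1*, *Mki67* and *Top2a*. By this rule 3560 of the 61731 barcodes that passed the quality limits were members, out of 68444 barcodes in the matrix. The members were thus chosen by the measured counts of these 9 genes and by their mitochondrial share. Levels of the 9 genes are given as a description, although the genes were kept in the fits. The limit also acts on the mitochondrial genes and the mitochondrial percent, so nothing is read from their tests.

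Cells came from the femur bone marrow of 9 female mice, aged 9 to 10 weeks, with 1 library per mouse and 3 mice per strain. The strains were NZB (New Zealand Black), NZW (its White counterpart) and their hybrid NZBWF1, bred from an NZW mother and an NZB father, which develops a disease like systemic lupus erythematosus later in life. Both parents serve as the reference for the hybrid, and neither is a healthy control in the strict sense, since NZB mice are themselves prone to autoantibodies. The labels name no treatment, transgene or Cre and no sort of the marrow cells.

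B cells arise in the marrow from pro-B and pre-B cells that rearrange their antigen receptor genes with the Rag enzymes and carry a surrogate light chain made of Vpreb and Igll1. A cell with a finished receptor becomes an immature B cell with IgM at its surface, and only later makes IgD from the same primary transcript as IgM, by splicing to the exons of *Ighd*. Marrow therefore holds both late immature cells with *Ighd* that have not yet left and mature follicular cells that recirculate through the marrow from blood and spleen. *Ms4a1* encodes CD20, *Fcmr* the receptor for the constant part of IgM, and *Cd79a* and *Cd79b* the signalling chains of the B cell receptor.

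The members per mouse numbered 278, 127 and 251 in NZB, 492, 638 and 413 in NZW, and 445, 384 and 532 in NZBWF1, with 109993 to 641495 UMIs in the sum of a mouse. Most members were shallow, and 2339 held fewer than 1000 UMIs. Of all members 1220 met the study's own limits of 1000 UMIs and 500 genes. The median UMIs per member were 706 ± 66.7 in NZB, 903 ± 109 in NZW and 862 ± 109 in NZBWF1 (± SD, 3 mice each; exact permutation of the mice over 280 partitions, p = 0.129). The median mitochondrial percent was 5.35 ± 0.101, 6.39 ± 0.171 and 6.19 ± 0.371 for these strains (exact permutation, p = 0.0179, adjusted 0.0536 over 3 measures). The rule capped this percent in every member, so no difference of strain is read from that test. NZB replicate 2 stood apart from its strain, with the fewest members and a chi-square per degree of freedom of 4.25 and 4.75 against the other NZB mice, which differed from each other by 1.61. NZBWF1 mice 1 and 3 differed by 4.27. Immunoglobulin genes held 6.72% of the member UMIs of NZB replicate 2, and 1.79% without 1 member rich in plasma cell genes. In NZBWF1 replicate 3 they held 4.74%, and 2.12% without 2 such members. The part of these cells in the chi-square values was not tested. The median rank correlation with its own strain was 0.833 for NZB replicate 2 and 0.858 for each other NZB mouse. Of all barcode sequences 557 occurred in more than 1 library, and 2 of these occurred among members.

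Just inside the limit on *Ighd*, 2147 members held exactly 1 UMI, 859 held 2 and 554 held 3 or more. Just outside it, 8811 barcodes met every other part of the rule with 0 UMIs of *Ighd*. Members with exactly 2 UMIs of *Ms4a1*, *Cd79a* and *Cd79b* together numbered 261, compared with 160 otherwise fitting barcodes with exactly 1. At least 1 UMI of *Ighd* was found in 0.247% of the neutrophil group (median 1848 UMIs per cell) and in 11.1% of small pre-B cells (median 843 UMIs). Suspected doublets, which carried UMIs of other lineages or more than 3 times the median UMIs, numbered 269 of the members, and no doublet caller was run.

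The label was checked against neighbouring groups gated from the same barcodes: other B cells without *Ighd* (8614 cells), small pre-B cells with *Rag1* (2310) and plasma cells (404). Levels are CPM, the UMIs of a gene per 1000000 UMIs summed over the cells of a mouse, and medians over the 9 mice are given. *Fcmr*, the only one of the 4 markers outside the rule, stood at 643 CPM in members, 407 in other B cells and 82.2 in small pre-B cells. *Ighd* stood at 1559, 0 and 119 CPM, *Ms4a1* at 1716, 1635 and 178, and *Cd79a* at 2748, 2514 and 2286 in the same order, all genes the rule used. Members and other B cells thus lay close for *Ms4a1* and *Cd79a*, and the name rests on *Fcmr* alone among these markers.

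The levels of genes of mature B cells that the rule did not use climbed in steps from small pre-B cells to members. *Cr2*, which encodes the complement receptor CD21, stood at 6.09 CPM in small pre-B cells, 35.3 in other B cells and 131 in members. *Fcer2a*, which encodes CD23, stood at 0, 35.8 and 161 CPM, *H2-Aa* of MHC class II at 193, 1074 and 2974, and the lymphotoxin gene *Ltb* at 212, 484 and 968. Genes of earlier stages ran the other way. *Vpreb3*, a chaperone of the pre-B and immature stages, stood at 4424, 2622 and 1212 CPM in the same order, the transcription factor gene *Sox4* at 800.5, 282 and 124, and *Myb* at 698, 247 and 104. *Prdm1* of plasma cells and *Dntt* of pro-B cells had medians of 0 CPM in members. These are descriptions, since the same cells were gated and compared.

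**Figure D1:**
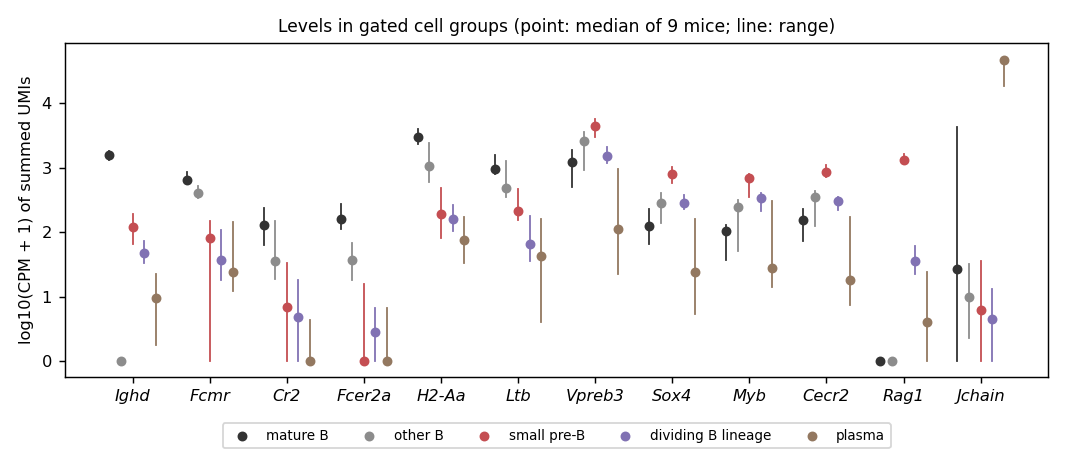
Levels of named genes in gated cell groups, as log10 of CPM + 1 of the summed UMIs. A point is the median of 9 mice and a line their range, and *Cr2* and *Fcer2a* were higher in mature B cells than in small pre-B cells while *Vpreb3* was lower.

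Members were not uniform. Members were thinned to an equal depth of 500 UMIs, and cells with and without a UMI of a gene were compared within each mouse as a description. Of the 520 members with a UMI of *Cr2* or *Fcer2a*, pooled over all mice, 14.4% also held *Vpreb3*, compared with 40.7% of the 3040 without, and the share was lower in 8 of 9 mice. The shares lay close in NZB replicate 1 (21.6% with and 24.2% without) and NZB replicate 2 (24.1% and 22.4%). *Vpreb3* was thus less frequent among members with these genes of mature cells.

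*Vpreb3* was found more often beside genes of young cells. It was held by 56.7% of the 614 members with *Cd24a* and 32.7% of those without, and by 74.2% of the 326 members with *Sox4* or *Myb* and 33.1% of those without, each higher in 9 of 9 mice. *Ltb* was found in 15.3% of the members with *Sox4* or *Myb* and in 40.1% of the others, lower in 9 of 9 mice. In the neutrophil group, thinned alike, *Vpreb3* was found in 0.513% of cells and *Cd24a* in 21.2%, above the 17.2% of members, so the share of *Cd24a* by itself is not read as expression in B cells.

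A few members carried plasma cell genes. In NZB replicate 2, 1 member with 10 or more UMIs of *Jchain*, *Mzb1* and *Xbp1* held 75.4% of all immunoglobulin UMIs of that mouse's members, in NZBWF1 replicate 3 a pair of such members held 57.0%, and in NZBWF1 replicate 2 a single one held 34.3%. The summed level of the 10 plasma cell markers ran from 916 to 5182 CPM in NZB, 710.3 to 786 in NZW and 679 to 3614 in NZBWF1. Neutrophil markers, 11 of 12 of which were found, summed to 23997 to 58086 CPM in NZB, 24788 to 30767 in NZW and 22511 to 42615 in NZBWF1, and their part in the differences of strain was not tested. T cell markers summed to 210.5 to 309 CPM in NZB, 329 to 473 in NZW and 347 to 450.3 in NZBWF1, lower in every NZB mouse than in any other, and their part in the differences was not tested either. Of the 12 markers of pro-B and pre-B cells *Rag1*, *Vpreb1*, *Vpreb2* and *Igll1* were at 0, all but *Vpreb2* by the rule.

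The first question was whether the hybrid holds more or fewer of these cells than its parents. Members made up 6.73, 1.73 and 4.64% of the barcodes that passed the limits in NZB, 7.33, 7.79 and 5.16% in NZW, and 10.6, 4.55 and 5.73% in NZBWF1, so the 3 strains overlapped. The means were 4.37 ± 2.52, 6.76 ± 1.40 and 6.96 ± 3.22% (SD, n = 3 mice; exact permutation, p = 0.461, where the smallest p these partitions can give is 0.00357). Tested on cell numbers over 12 groups of cells, NZBWF1 differed from the mid-parent, which is here the mean of both parents on the log scale, by a log2 fold change of 0.36 (edgeR, SE 0.32, adjusted p = 0.469), and NZB from NZW by -0.64 (edgeR, SE 0.38, adjusted p = 0.170). A difference in the share of members was not detectable with 3 mice per strain, although without NZB replicate 1 NZB against NZW passed (-1.09, edgeR, adjusted p = 0.0416), and without NZBWF1 replicate 1 the value for NZBWF1 against the mid-parent turned to -0.08. With B-lineage cells as the total the direction also turned, to 0.53 for NZB against NZW and -0.24 for NZBWF1 against the mid-parent (edgeR, adjusted p = 0.386 and 0.559). Fewer cells of a type and less RNA per cell cannot be told apart in a count of barcodes above a UMI limit.

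The numbers of members were also set against those of small pre-B cells, as a description. Members per small pre-B cell were 4.03, 4.10 and 3.30 in NZB, 1.58, 2.29 and 1.18 in NZW, and 1.48, 1.19 and 0.930 in NZBWF1. Every NZB mouse was above every mouse of the other strains, while NZW and NZBWF1 overlapped. The means were 3.81 ± 0.440, 1.69 ± 0.563 and 1.20 ± 0.274 (SD, n = 3), and NZB stood at 2.64 times the mean of the others. The ratio was chosen after the numbers of small pre-B cells, 69, 31 and 76 in NZB and 278 to 572 in the other mice, had been seen, and both gates use *Rag1*, so no test is given. With cells thinned to 500 UMIs before the rule NZB stood at 2.59 times the others, and within the study's limits at 1.95 times, where NZB replicate 2 (2.75, from 8 small pre-B cells) lay just below NZW replicate 2 (2.78).

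**Figure D2:**
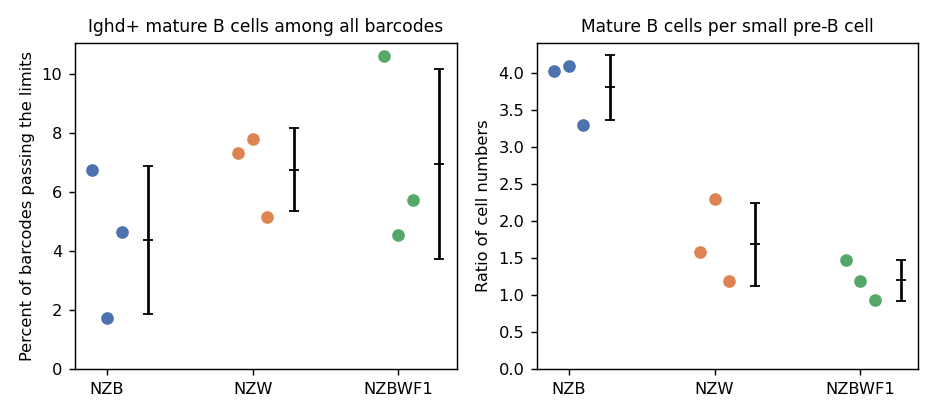
Mature B cells as a percent of the barcodes that passed the limits (left) and per small pre-B cell (right). A point is 1 mouse and a bar the mean of 3, and the NZB mice lie at 3.30 to 4.10 per small pre-B cell while all others lie at 0.930 to 2.29.

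Shares of members with a UMI of 13 genes outside the rule were compared on cells thinned to 500 UMIs. *Cr2* was found in 10.4, 15.7 and 12.7% of members in NZB, 4.47, 4.08 and 5.57% in NZW, and 6.97, 9.38 and 4.70% in NZBWF1. All NZB mice were above all others, and NZW and NZBWF1 overlapped (exact permutation, p = 0.00714, adjusted 0.0929 over the 13 genes). Of the 13 genes 0 passed an adjusted p of 0.05 on thinned cells, and 3 had an unadjusted p under 0.05, *Cr2*, *Cd24a* and the lambda constant genes together (exact permutation, adjusted p = 0.0929 for each). The smallest p these partitions can give is 0.00357, so few outcomes can pass over 13 genes. With suspected doublets left out, *Cr2* and *Cd24a* passed on thinned cells (exact permutation, adjusted p = 0.0464 for each). In cells that were not thinned, *Cr2*, *Cd24a* and *Cd93* passed (adjusted p = 0.031 for each, exact permutation), with *Cr2* in 18.4, 7.44 and 11.2% of members on average in NZB, NZW and NZBWF1. The neutrophil group, with a median of 1848 UMIs against 864 in members, held *Cr2* in 0.0285% of thinned cells and 0.0665% of cells as measured, far below members. It held *Cd93* in 1.34% of thinned cells, above the 1.18% of members, and *Cd24a* was likewise more frequent there than in members, so no strain difference is read from the shares of these genes.

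The second question was which genes differed between the strains within these cells. UMIs of the members were summed per mouse, and levels below are CPM after TMM scaling, tested by the edgeR quasi-likelihood method on 6364 genes. Between NZB and NZW 213 genes passed an adjusted p of 0.05 (3.35% of those tested), 106 higher and 107 lower in NZB, with 872 at an unadjusted p under 0.05. With NZB replicate 3 left out the count was 141, and without NZB replicate 2, the mouse that stood apart, it was 175. *Ms4a1*, a gene of the rule, is among the 213 genes and in the counts drawn from them, and nothing is read from its call. The same holds for *mt-Nd1* and *mt-Co1*, whose UMIs enter the mitochondrial share that the rule limits. Markers of other cell types were among the called genes, all higher in NZB: *Ltf* (0.55) and *Ly6g* (1.73) of neutrophils, *Siglech* (2.48) of plasmacytoid dendritic cells and *Mzb1* of plasma cells (edgeR, log2 differences). Called were 2 of 11 neutrophil, 1 of 6 dendritic cell and 1 of 7 plasma cell markers tested, where 1.67% of all genes rose. The median log2 difference of the plasma cell markers was -0.31. *Mzb1* stayed called with cells with plasma cell genes left out. With at least 2 UMIs of *Ighd*, *Ltf* turned to -0.58, and *Ly6g* and *Mzb1* were no longer called (edgeR, adjusted p = 0.938 and 0.0667). Whether sequence differences of the strains from the mm10 reference changed the counting of reads was not tested.

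Where genes of recirculating and follicular B cells differed, they were higher in NZB. Of 17 tested, 5 rose and 0 fell (1.67% and 1.68% of all genes), with a median log2 difference of 0.31 over the list and 0.00 over all genes. This and the other gene lists were chosen with earlier results of these data known, so the counts over lists are descriptions. *Cr2* stood at 213, 268 and 257 CPM in NZB, 65.01, 63.4 and 96.2 in NZW and 132, 134 and 74.8 in NZBWF1. All NZB mice were above all others, and NZW and NZBWF1 overlapped (edgeR, log2 difference 1.71, SE 0.22, adjusted p = 6.84e-08). The oxysterol receptor gene *Gpr183*, which positions activated B cells at the follicle edge, stood at 143, 165 and 145 CPM in NZB, 38.7, 30.1 and 44.9 in NZW and 65.1, 60.6 and 47.6 in NZBWF1. The strains did not overlap, and NZBWF1 lay between its parents (edgeR, log2 difference 1.98, SE 0.26, adjusted p = 5.9e-08).

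*S1pr1*, the receptor that lets lymphocytes leave tissue along a gradient of sphingosine 1-phosphate, stood at 139, 175 and 88.8 CPM in NZB, 61.5, 74.5 and 49.2 in NZW and 134, 79.1 and 81.5 in NZBWF1. NZB lay above NZW without overlap, and NZBWF1 overlapped NZB (edgeR, log2 difference 1.02, SE 0.26, adjusted p = 0.0136). *Ltb*, a ligand needed for follicle structure, stood at 1677, 1557 and 1679 CPM in NZB, 1005, 825 and 896 in NZW and 898, 996 and 929 in NZBWF1, higher in each NZB mouse than in any other (edgeR, log2 difference 0.85, SE 0.12, adjusted p = 1.64e-07). The adaptor gene *Bank1* also rose, by 0.69 on the log2 scale (edgeR, adjusted p = 0.00124). Not called were *Fcmr* at 899.7, 742 and 865 CPM in NZB, 666, 574 and 646 in NZW and 667, 643 and 656 in NZBWF1 (edgeR, log2 difference 0.43), *Fcer2a* (0.15) and *Ccr7* (-0.04). Within the study's limits *Cr2* and *Bank1* were no longer called (edgeR, adjusted p = 0.204 and 0.380).

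The genes of immature and transitional B cells that differed were lower in NZB. Of 15 tested, 0 rose and 3 fell in NZB (1.67% and 1.68% of all genes), with a median log2 difference of -0.64. The choice of this list carries the same limit, and the count is a description. The summed level of the 12 markers of pro-B and pre-B cells in members was 1546 to 1732 CPM in NZB, 2338 to 2385 in NZW and 1750 to 2153 in NZBWF1. That list also holds *Ms4a1*, a gene of the rule with a level in members far above that of *Sox4*. The sum is therefore not read as a level of early genes, and its part in the difference was not tested. *Myb*, a transcription factor gene of early lymphocytes, stood at 49.1, 41.2 and 51.4 CPM in NZB, 123, 105 and 107 in NZW and 102, 113 and 134 in NZBWF1. NZB lay below both other strains without overlap, and NZW and NZBWF1 overlapped (edgeR, log2 difference -1.20, SE 0.27, adjusted p = 0.00332). *Spib* (edgeR, log2 difference -0.70, SE 0.15, adjusted p = 0.0011) and *Bach2* (edgeR, log2 difference -0.70, SE 0.18, adjusted p = 0.014), transcription factor genes of B cells, fell as well, by less than 2-fold.

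Compared with NZB, NZBWF1 had 5 genes of the same list higher (0.927% of all genes) and 0 lower (0.786%). These were *Myb* (1.26), *Sox4* (1.17), *Cecr2* (0.89), *Spib* (0.53) and *Ebf1* (0.51) on the log2 scale (edgeR, adjusted p from 0.00421 to 0.0469). Each of these calls was lost under some alternatives, that of *Myb* within the study's limits, with at least 2 UMIs of *Ighd* and in thinned sums. *Vpreb3* stood at 712, 567 and 893 CPM in NZB, 1539, 1358 and 1302 in NZW and 1023, 1246 and 1993 in NZBWF1, lower in every NZB mouse than in any NZW mouse, but the difference did not pass (edgeR, log2 difference -0.93, adjusted p = 0.182). Against NZW, 0 of the 15 genes passed for NZBWF1 (edgeR), where 0.534% of all genes did, so nothing is read from this count.

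**Figure D3:**
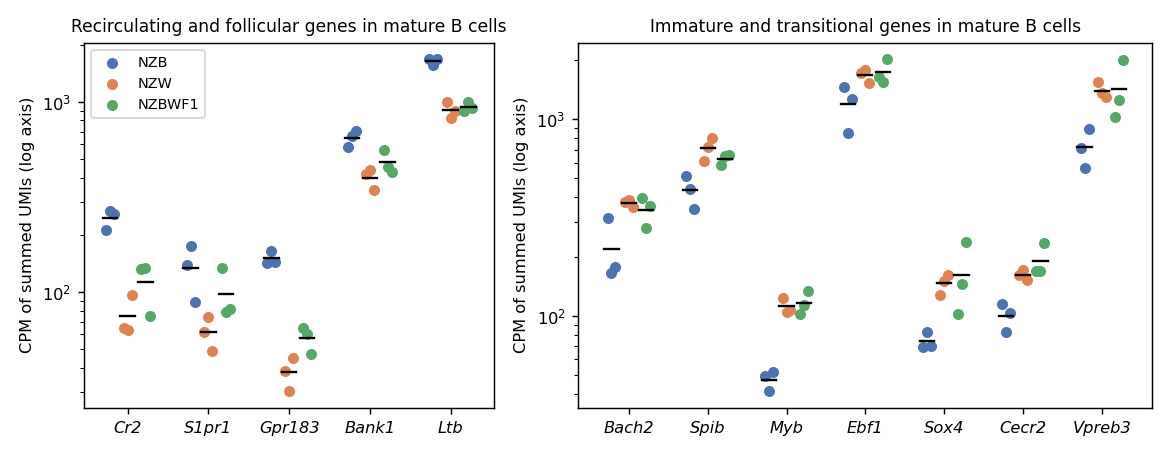
CPM of summed UMIs of mature B cells on a log axis, for called genes of recirculating and follicular cells (left) and for genes of immature and transitional cells (right). A point is 1 mouse and a bar the mean of 3, and all *Cr2*, *Gpr183* and *Ltb* points of NZB lie above those of NZW while those of *Myb* and *Vpreb3* lie below.

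The called genes as a whole were also read by their level in small pre-B cells. Of the 106 genes higher in NZB than in NZW, 32 (30.2%) were more than 2-fold lower in small pre-B cells than in members and 1 was more than 2-fold higher. Of the 107 genes lower in NZB, 26 (24.3%) were more than 2-fold higher in small pre-B cells and 7 more than 2-fold lower. Over all 6364 genes the shares were 4.56% lower and 3.76% higher. These are counts without a test, and the members behind them are the same cells in which the strains were compared.

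Genes of the antigen receptor and its signalling were called in both directions between NZB and NZW. Of 24 tested, 4 rose in NZB and 1 fell, where 1.67% and 1.68% of all genes did. *Cd81* (log2 difference 0.74), a tetraspanin that partners CD21 at the surface, *Siglecg* (0.74), an inhibitory receptor, *Bank1* and *Cr2* rose (edgeR). The kinase gene *Syk*, which starts the receptor signal, stood at 413, 330.0 and 267 CPM in NZB, 662, 684 and 618 in NZW and 647, 545 and 559 in NZBWF1, and NZB lay below NZW without overlap (edgeR, log2 difference -0.95, SE 0.15, adjusted p = 8.97e-06). *Lyn* (-0.46) and *Btk* (0.38) did not pass.

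For the lists that follow, the shares over all genes were again 1.67% higher and 1.68% lower in NZB. Among 26 transcription factors of the B lineage, 0 rose and 4 fell: *Spib*, *Bach2*, *Tcf3* (-0.68), an E protein of early B cells, and *Zeb2* (-0.72) (edgeR). *Pax5* (-0.25), which holds the B cell identity, did not pass. Of 14 genes of survival and apoptosis 2 rose, *Bcl2* (0.84), which keeps lymphocytes alive, and *Bcl2a1b* (1.15), and *Bmf* (-1.83), which promotes cell death, fell (edgeR). *Bcl2* stood at 131, 340.3 and 271 CPM in NZB, 121, 141 and 118 in NZW and 167, 155 and 119 in NZBWF1, and the low NZB replicate 1 overlapped NZW. Of 10 genes of BAFF, APRIL and lymphotoxin *Ltb* and *Nfkb2* (0.91) rose and 0 fell, and *Tnfrsf13c*, the BAFF receptor, differed by -0.25 without passing.

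Of 19 genes of trafficking 3 rose in NZB, *S1pr1*, *Gpr183* and *P2ry10* (0.96), and the integrin gene *Itga4* fell (-0.65), while *Cxcr4*, which holds cells in the marrow, differed by -0.10 without passing (edgeR). Within the study's limits *P2ry10* turned to -0.72. Of 18 activation and immediate early genes *Junb* (0.84) and *Bcl2a1b* rose and *Ccnd2* (-1.29) fell. Of 9 Toll-like receptors and adaptors 0 passed between NZB and NZW (edgeR), and *Irak4*, a kinase below these receptors, was lower in NZBWF1 than in NZB (-1.81). Of 3 genes of age-associated cells *Zeb2* fell and 0 rose, of 7 genes of marginal zone cells *Cr2* rose and 0 fell, and of 9 genes of B-1 cells *Ahnak* (-1.06) fell and 0 rose, although the median log2 difference of the B-1 list was 0.86 (edgeR), and the 1 germinal centre gene tested, *Bcl6* (-0.10), was not.

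Some of these calls depended on single mice (edgeR, adjusted p of 0.05 over all genes). Without NZB replicate 2, the call between NZB and NZW was lost for *S1pr1*, *P2ry10*, *Bcl2*, *Bcl2a1b*, *Bmf*, *Bach2*, *Tcf3*, *Zeb2*, *Junb*, *Nfkb2*, *Itga4*, *Ahnak*, *Slamf6*, *Siglech*, *Ltf* and *H2-Q4*. Without NZB replicate 1 it was lost for *S1pr1*, *P2ry10*, *Bcl2a1b*, *Bmf*, *Zeb2*, *Nfkb2*, *Itga4*, *Ahnak*, *Cd81*, *Ccnd2*, *Siglech*, *Ltf*, *Iglc2* and *H2-Q4*, and without NZB replicate 3 for *P2ry10*, *Bcl2*, *Bach2*, *Tcf3*, *Spib*, *Itga4*, *Ccnd2* and *Iglc2*. Leaving out an NZW mouse ended the call in at least 1 case for *Bcl2*, *Bcl2a1b*, *Bmf*, *Tcf3*, *Zeb2*, *S1pr1*, *P2ry10*, *Itga4*, *Ahnak*, *Cd81*, *Nfkb2*, *Siglech*, *Ltf* and *Iglc2*. *Cr2*, *Gpr183*, *Ltb*, *Bank1*, *Myb*, *Syk*, *Siglecg*, *Mndal*, *Ifi203*, *Ifitm2*, *Ly6e*, *Ly6d*, *Apobec3* and *H2-Aa* were called with each mouse left out in turn. Of these *Myb* was lost under DESeq2, within the study's limits, with at least 2 UMIs of *Ighd* and in thinned sums, *Siglecg* (0.32, edgeR, adjusted p = 0.603) within the study's limits, and *Gpr183* (1.22, edgeR, adjusted p = 0.11) and *Bank1* with at least 2 UMIs of *Ighd*.

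Interferon-stimulated genes were lower in NZB where they differed. Of 30 tested, 0 rose and 4 fell (1.67% and 1.68% of all genes), with a median log2 difference of -0.23. *Mndal*, a DNA sensor of the Ifi200 family, stood at 16.4, 20.6 and 18.7 CPM in NZB, 408, 322 and 361 in NZW and 149, 184 and 189 in NZBWF1. The strains did not overlap and NZBWF1 lay between (edgeR, log2 difference -4.31, SE 0.29, adjusted p = 5.4e-19). *Ifitm2*, which hinders the entry of viruses, stood at 115, 382 and 145 CPM in NZB, 2351, 2185 and 2054 in NZW and 919, 1004 and 1098 in NZBWF1, in the same order without overlap (edgeR, log2 difference -3.57, SE 0.35, adjusted p = 0.00219).

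*Ly6e*, a small surface protein, stood at 691, 649.6 and 594 CPM in NZB, 2128, 2076 and 2166 in NZW and 1448, 1320.2 and 1356 in NZBWF1, again with NZBWF1 between parents that did not overlap (edgeR, log2 difference -1.72, SE 0.12, adjusted p = 1.84e-18). *Ifi203*, a neighbour and relative of *Mndal*, fell by 1.18 on the log2 scale (edgeR, adjusted p = 2.19e-06). The annotated *Mndal* and *Ifi203* overlap on the same strand and members of this family are alike, so their reads may be split uncertainly. Genes that were not called include *Irf9* (0.21), which carries the interferon signal, and the target genes *Zbp1* (-0.46) and *Bst2* (-0.01) (edgeR, log2 differences). *Apobec3*, a cytidine deaminase that acts against retroviruses, ran the other way, at 703, 815 and 926 CPM in NZB, 24.6, 33.3 and 36.3 in NZW and 492, 298 and 316 in NZBWF1, with NZB highest and no overlap (edgeR, log2 difference 4.69, SE 0.21, adjusted p = 3.37e-23).

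Promoters are shown for the genes of this group that differed and have an entry in the promoter table, which are *Mndal*, *Ifi203* and *Ifitm2* but not *Ly6e*, and for *Apobec3* and *Ltb*, to give the reference sequence in which an interferon-stimulated response element (ISRE) or an NF-kB site lies. The 250 bases before a RefSeq start are printed 5′ to 3′ in the direction of the gene, from build GRCm38.p6, which is not the sequence of NZB or NZW. Capitals mark the core of the ISRE, which is GAAA, any 2 bases and GAAA, searched on both strands, and in *Ltb* a consensus site of NF-kB. The motifs were chosen after the values were seen.
Mndal (chr1:173880188-173880437, - strand): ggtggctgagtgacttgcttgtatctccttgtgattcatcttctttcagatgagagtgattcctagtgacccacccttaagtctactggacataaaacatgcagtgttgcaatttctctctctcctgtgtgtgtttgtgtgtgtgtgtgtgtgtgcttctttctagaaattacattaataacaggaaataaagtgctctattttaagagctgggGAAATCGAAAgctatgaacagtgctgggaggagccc
Ifi203 (chr1:173942493-173942742, - strand): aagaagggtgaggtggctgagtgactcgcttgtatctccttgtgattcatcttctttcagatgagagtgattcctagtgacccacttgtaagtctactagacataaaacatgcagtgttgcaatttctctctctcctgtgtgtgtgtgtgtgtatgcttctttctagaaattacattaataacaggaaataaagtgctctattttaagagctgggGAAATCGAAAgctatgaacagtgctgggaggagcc
Ifitm2 (chr7:140955962-140956211, - strand): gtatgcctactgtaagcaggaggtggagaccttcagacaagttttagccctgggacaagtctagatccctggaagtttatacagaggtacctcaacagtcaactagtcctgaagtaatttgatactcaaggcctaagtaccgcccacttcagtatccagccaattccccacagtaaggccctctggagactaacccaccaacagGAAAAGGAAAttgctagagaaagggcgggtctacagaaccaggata
Apobec3 (chr15:79892158-79892407, + strand): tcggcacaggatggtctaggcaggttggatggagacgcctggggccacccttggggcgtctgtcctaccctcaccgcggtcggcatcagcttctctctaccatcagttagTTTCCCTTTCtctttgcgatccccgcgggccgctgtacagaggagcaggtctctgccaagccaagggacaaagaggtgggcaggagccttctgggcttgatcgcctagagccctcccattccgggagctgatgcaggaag
Ltb (chr17:35194257-35194506, + strand): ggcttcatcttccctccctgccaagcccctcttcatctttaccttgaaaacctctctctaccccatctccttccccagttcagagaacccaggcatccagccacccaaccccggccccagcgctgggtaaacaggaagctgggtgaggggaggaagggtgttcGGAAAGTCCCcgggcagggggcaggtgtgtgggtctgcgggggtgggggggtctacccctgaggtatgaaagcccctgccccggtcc
The ISRE core lay in 978 of 32851 promoter entries (2.98%), in 21 of 41 interferon-stimulated genes with an entry (51.2%) and in 12 of the 164 genes with an entry that differed between NZB and NZW (7.32%). The first share counts entries and the others count genes, where any matching entry of a gene is enough, so their units are unlike. Between it and the start lay 26 bases in the printed entry of *Mndal*, 44 in a second entry of that gene, 25 in *Ifi203*, 36 in *Ifitm2* and 130 in *Apobec3*. The 10 letters of the NF-kB site lay in 46 of all promoters (0.140%), among them *Nfkb2* and *Ltb*, with 77 bases before the start of the latter. A match is a description of these letters and not a site shown to be used.

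Some called genes lay close together. The stretches below were drawn as runs of at least 3 called genes, each within 1 Mb of the next, so their share of called genes is fixed by the way they were drawn and is not set against the 3.35% over all genes. On GRCm38 the stretch chr1:170917576-173942672 held 34 tested genes, of which 8 differed between NZB and NZW and 8 were lower in NZB: *Fcrla*, *Gm37065*, *Slamf6*, *Tagln2*, *Ifi206*, *Ifi209*, *Mndal* and *Ifi203*. Distal chromosome 1 is known for lupus susceptibility in New Zealand mice. Of 11 tested SLAM and Fc receptor genes of that chromosome *Slamf6* (-0.62), a receptor of lymphocyte contacts, and *Fcrla* (-0.83) fell and 0 rose (edgeR), while *Fcgr2b*, the inhibitory Fc receptor, differed by 0.14 without passing. *Ifi206* had 0 UMIs in NZB and 41 in NZW, which is at least 4.55-fold higher in NZW when 0 is set to 3 UMIs for the whole strain.

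In the stretch chr15:74747852-75159126, 5 of 7 tested genes differed. *Ly6d*, a surface marker of B cell commitment, stood at 364, 330.0 and 496 CPM in NZB, 2816, 2821 and 2676 in NZW and 1257, 1357 and 1592 in NZBWF1. The strains did not overlap (edgeR, log2 difference -2.78, SE 0.13, adjusted p = 9.23e-26). *Lynx1*, *Ly6k* and *Ly6e* were lower in NZB as well, with *Ly6k* at least 11.1-fold higher in NZW than in NZB, which had 0 UMIs, while the neutrophil marker *Ly6g* was higher (1.73). Another stretch, chr15:79670861-80652854, held *Apobec3* with *Tomm22*, *Cbx7* and *Grap2*, 4 of 11 genes and all higher in NZB (edgeR).

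The H2 region, chr17:33996017-36042747, held 58 tested genes, of which 7 were higher and 3 lower in NZB. In MHC class I, *H2-K1* (0.56), *H2-D1* (0.63), *H2-Q6* (2.37) and *H2-Q7* (2.94) rose and *H2-Q4* (-0.99), *H2-T22* (-1.76) and *H2-T23* (-1.17) fell (edgeR, 15 genes tested). These genes are alike in sequence and polymorphic between strains, so that reads may be placed on a neighbour. The sum of these 7 genes, chosen because each was called, was 5726 ± 715 CPM in NZB, 3940.1 ± 145 in NZW and 4569.9 ± 301 in NZBWF1 (SD, n = 3), given as a description.

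In MHC class II, *H2-Aa*, the alpha chain of I-A, stood at 4159, 3712 and 4021 CPM in NZB, 2729, 2441 and 2569.5 in NZW and 3306, 3059 and 2407 in NZBWF1. NZB lay above NZW (edgeR, log2 difference 0.62, SE 0.10, adjusted p = 1.92e-05), although not within the study's limits (edgeR, adjusted p = 0.596). *H2-Ab1* differed by 0.35 and *Cd74*, the invariant chain, by 0.30 without passing (edgeR). The protease gene *Ctse*, with 8 UMIs in NZB, fell (-2.90). Of 14 genes of this list 1 rose and 1 fell.

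**Figure D4:**
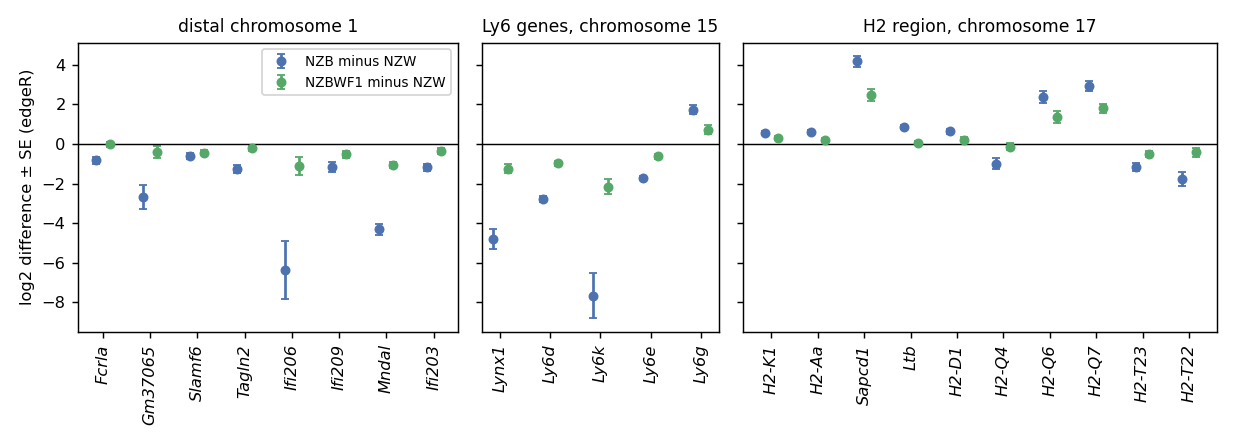
Log2 differences with SE (edgeR) in mature B cells for called genes that lie together on chromosomes 1, 15 and 17, for NZB minus NZW and NZBWF1 minus NZW. All 8 genes on chromosome 1 are lower in NZB, and *Ly6d* and *Ly6e* are lower on chromosome 15, while the H2 genes lie on both sides of 0.

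Some of the largest differences fell on pairs of near-identical genes. *Ftl1*, the ferritin light chain, stood at 2081 ± 339.7 CPM in NZB, 56.4 ± 1.41 in NZW and 823 ± 121 in NZBWF1, and its copy *Ftl1-ps1* at 15.5 ± 10.9 CPM in NZB, 1442 ± 53.6 in NZW and 711 ± 79.9 in NZBWF1. Their sum was 2096 ± 349 CPM in NZB, 1498 ± 54.96 in NZW and 1535 ± 199 in NZBWF1 (SD, n = 3). *Tpm3* and *Tpm3-rs7* likewise moved in opposite directions, and their sum was 345 ± 24.2 CPM in NZB, 409 ± 59.9 in NZW and 323 ± 19.4 in NZBWF1. Reads of such pairs cannot be assigned with certainty, and the sums are descriptions, since the pairs were chosen after their values were seen.

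*Psme2* and its copy *Psme2b* summed to 265 ± 39.1 CPM in NZB, 165 ± 10.7 in NZW and 236 ± 14.1 in NZBWF1, and *Rbm8a* with *Rbm8a2* to 153 ± 7.62 CPM in NZB, 105 ± 17.4 in NZW and 126 ± 12.9 in NZBWF1. *Rbm8a2*, *Pld5* and *Fam57b* had 0 UMIs in NZW and were at least 36.03-fold, 58.1-fold and 30.03-fold higher in NZB.

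The third question was where the hybrid lies. NZBWF1 differed from NZB in 109 genes (1.71%), 59 higher (0.927%) and 50 lower (0.786%), and from NZW in 34 (0.534%), 19 higher (0.299%) and 15 lower (0.236%) (edgeR). These comparisons share the NZBWF1 mice. Without NZB replicate 3 the count against NZB was 53, without replicate 1 it was 63 and without replicate 2 it was 68, and without NZBWF1 replicate 1 the count against NZW was 51. Besides the genes of immature cells, *Syk* (0.79) and *Ctse* (1.66) were higher in NZBWF1 than in NZB, and *Cr2* (-1.11), *Gpr183* (-1.37), *Ltb* (-0.80), *H2-Aa* (-0.44) and *H2-Ab1* (-0.47) were lower. Against NZW, *Ly6d* (-0.98), *Ly6e* (-0.63) and *Mndal* (-1.06) were lower and *Apobec3* (3.56), *H2-Q7* (1.80) and the integrin gene *Itgb1* (1.24) higher, all as log2 differences. On leaving out single mice the call against NZB was lost in at least 1 case for *Spib*, *Sox4*, *Cecr2*, *Ebf1*, *Irak4*, *Ctse*, *Syk*, *H2-Aa* and *H2-Ab1*, and that of *Itgb1* against NZW. Within the study's limits *Cr2* (-0.45, edgeR, adjusted p = 0.781), *Gpr183* (-1.54, adjusted p = 0.052), *Ltb* (-0.62, adjusted p = 0.0621), *Myb*, *Syk*, *H2-Aa* and *H2-Ab1* were no longer called against NZB, nor were these genes other than *Ltb* with at least 2 UMIs of *Ighd*.

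For the 213 genes that differed between the parents, the place of NZBWF1 was set on a scale of mean log2 CPM with 0 at NZW and 1 at NZB, as a description. These genes were chosen for a large difference between the same NZB and NZW mice that set the scale, and the NZB sums were the shallowest, at 109993 to 255158 UMIs, so the place is read neither against chance nor as nearness to a parent. For 92.5% of these genes NZBWF1 lay between the parents, and its median place was 0.313 (quartiles 0.187 and 0.481). The place was on the NZW side of the middle for 166 genes and on the NZB side for 47, and NZBWF1 lay beyond NZW for 15 and beyond NZB for 1. The median place of the single NZBWF1 mice was 0.358, 0.341 and 0.273. Leaving out each mouse moved the median between 0.290 and 0.354.

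**Figure D5:**
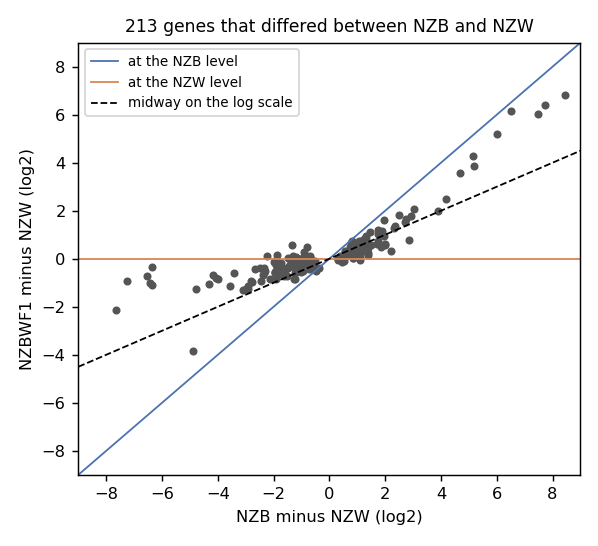
Log2 difference of NZBWF1 from NZW against that of NZB from NZW, for the 213 genes that differed between the parents in mature B cells, with lines at the level of either parent. Points lie mostly between the lines, at a median place of 0.313 from NZW toward NZB.

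Against the mid-parent, with coefficients of -0.5, 1 and -0.5, 17 genes passed in NZBWF1 (0.267%), 15 higher (0.236%) and 2 lower (0.0314%), with 468 at an unadjusted p under 0.05. The mean of NZBWF1 lay between the parents for 10 of them, and 13 of them also differed between NZB and NZW. The genes between the parents were *Ftl1*, *Ftl1-ps1*, *Gm42031*, *Psme2b*, *Apobec3*, *Tpm3-rs7*, *Mndal*, *Pld5*, *Fam129c* and *Rbm8a2*. Against sums of 1 NZB and 1 NZW mouse at equal totals, an alternative that also thins the sums, 0 of 5920 genes passed, with 357 at an unadjusted p under 0.05 (edgeR). DESeq2 called 7 genes against the mid-parent on the log scale, and without NZBWF1 replicate 1 edgeR called 34.

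For 7 of the 17 genes the NZBWF1 mean lay outside the parents. *Dnajc7*, a co-chaperone of Hsp70 and Hsp90, stood at 344, 412 and 383 CPM in NZB, 692, 687 and 718 in NZW and 638, 746 and 1157 in NZBWF1. NZBWF1 and NZW overlapped, with NZBWF1 replicate 3 the highest mouse and all NZB mice lowest (edgeR, log2 difference 0.73, SE 0.13, adjusted p = 0.00217). *Atp1b1*, a subunit of the sodium pump, stood at 106, 124 and 65.5 CPM in NZB, 172, 171 and 148 in NZW and 170.5, 216 and 294 in NZBWF1 (edgeR, log2 difference 0.88, SE 0.17, adjusted p = 0.00217). The others were *Coq7* (1.26) of ubiquinone synthesis, *Serinc5* (1.02) and the neutrophil granule gene *Ctsg* (2.07), higher, and *E230001N04Rik* (-1.33) and *Gm10260* (-0.58), lower (edgeR). All 7 genes were lost without NZBWF1 replicate 3, and each was lost under 4 to 11 of the alternatives.

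Strain differences were also compared with those in small pre-B cells of the same mice. Between NZB and NZW, 15 of 6213 genes (0.241%) differed in their strain difference between the 2 stages, and for NZBWF1 against the mid-parent 0 did (0%), with 295 at an unadjusted p under 0.05 (edgeR interaction). Within small pre-B cells alone, 61 of 5516 genes differed between NZB and NZW (1.11%), 12 between NZBWF1 and NZB (0.218%), 31 between NZBWF1 and NZW (0.562%) and 3 between NZBWF1 and the mid-parent (0.0544%) (edgeR). *Ly6d* differed between NZB and NZW by a log2 value of -2.78 in members and -2.73 in small pre-B cells, *Ly6e* by -1.72 and -1.55, and *Ifitm2* by -3.57 and -3.43. *Fam129c*, also known as *Niban3*, stood in members at 89.97, 103 and 88.8 CPM in NZB, 341, 358 and 339.9 in NZW and 216, 266 and 384 in NZBWF1. In small pre-B cells it stood at 989, 578 and 966 CPM in NZB, 934, 817 and 878 in NZW and 998, 806 and 971 in NZBWF1, where the strains overlapped.

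Light chains were read per member, with a chain called dominant when its UMIs were at least 3 times those of the other. Both chains were found with neither dominant in 47 (of 127, NZB replicate 2) to 253 (of 638, NZW replicate 2) members of a mouse. These members, and those without a light chain, are left out of the shares that follow. A UMI of a lambda constant gene was found in 71.5% of all members after thinning. Among members with a dominant chain, it was lambda in 10.9, 11.7 and 13.8% in NZB and 8.08, 10.8 and 7.52% in NZW. In NZBWF1 it was lambda in 14.1, 9.61 and 7.58%, and the strains overlapped (exact permutation, p = 0.279). Of 5 constant region genes tested, *Iglc2* rose in NZB (edgeR, log2 difference 0.38, SE 0.11, adjusted p = 0.0227) and 0 fell. *Mzb1*, a chaperone of immunoglobulin assembly, rose as well (edgeR, log2 difference 0.82, SE 0.16, adjusted p = 0.000253).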

How the data were processed

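Transcripts of single cells from femur marrow were counted in 9 female mice. The authors made UMI counts per gene and barcode with Cell Ranger 3.1.0 on mm10 after bcl2fastq 2.20, per the submitters' processing notes, and deposited 1 merged filtered matrix of whole counts for 31053 genes and 1 of all barcodes. Whether the merging equalised depth between libraries is unknown here. Barcode suffixes were read as positions in the deposited list of libraries, which leaves 0 columns without a mouse. Genes with a shared name (35 names) were kept apart by identifier.

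The rule, its limits and the gene lists were chosen with earlier results of these data known. Named genes are those of the rule and markers, all called genes of NZBWF1 against the mid-parent (the parents' mean on the log scale), the 10 of smallest p in each direction between NZB and NZW, the 5 against each parent and for each interaction, and called genes of the lists, with uncalled list genes as examples. Some genes, such as those in the stretches of called genes, were named besides these. UMIs of members were summed per mouse and tested with edgeR 4.0.16 (filterByExpr, TMM, robust quasi-likelihood, Benjamini-Hochberg adjustment) in R 4.3.3. An SE beside an edgeR value is the absolute log2 difference divided by the square root of its F statistic, and edgeR itself gave no SE. DESeq2 1.42.0 was an alternative. Cell numbers were tested with edgeR without a dispersion trend. Exact permutations used the 280 partitions of the 9 mice. Free RNA, from barcodes of 10 to 99 UMIs, gave 12 to 17 UMIs per barcode, or 1.21% to 2.52% of a member's median, and was subtracted in 1 alternative. Leaving out cells with plasma cell genes, and the ratio to small pre-B cells with its alternatives, were chosen after seeing the data. Positions come from GENCODE vM21 (6361 of the 6364 tested genes matched) and promoters from RefSeq. Scripts used Python 3.11.15 with scipy 1.17.1, and the procedure was tested on simulated data. Results on some genes are not reported here.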

Additional observations from a re-analysis of the deposited data

Results flagged for a closer look

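Between NZB and NZW, 15 of 6213 genes had a strain difference that differed between mature B and small pre-B cells of the same mice, 6 higher and 9 lower in members (edgeR interaction test). The difference in the log2 value for *Fam129c*, members minus small pre-B cells, was -1.93 (edgeR, SE 0.26, adjusted p = 5.83e-07). In small pre-B cells it stood at 989, 578 and 966 CPM in NZB, 934, 817 and 878 in NZW and 998, 806 and 971 in NZBWF1, and in members at 89.97, 103 and 88.8 CPM in NZB, 341, 358 and 339.9 in NZW and 216, 266 and 384 in NZBWF1, so that NZB lay apart from NZW in members and overlapped it in small pre-B cells.

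For *Vpreb3* the difference was -0.94 (edgeR, SE 0.15, adjusted p = 1.37e-05). The log2 value of NZB against NZW was 0.02 in small pre-B cells and -0.93 in members, where it did not pass by itself (edgeR, adjusted p = 0.182). For *Camk2d* the difference was -1.47 (edgeR, SE 0.25, adjusted p = 6.75e-05), from 1.57 in small pre-B cells and 0.10 in members, and it was lost without NZB replicate 3. For *Sapcd1* it was 3.85 (edgeR, SE 0.61, adjusted p = 1.89e-05) and for the ribosomal gene *Rps27* 0.72 (edgeR, SE 0.14, adjusted p = 0.000861), and *Camk2d* and *Rps27* were lost within the study's limits. The other 10 genes were *Tagln2*, *Akap12*, *Ucp2*, *Jchain*, *Iglc3*, *Ifi214*, *Ctsg*, *Rpl22*, *Ifi27l2a* and *Mta3*. *Jchain* is a gene of plasma cells and *Iglc3* a lambda light chain gene of B cells in general. In NZB replicate 2, 1 member held 75.4% of the immunoglobulin UMIs of that mouse's members.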

How the results depend on the processing

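Counts of called genes moved as follows, and the cause was not tested. For NZBWF1 against the mid-parent (17), DESeq2 gave 7, no filter beyond 1 count 43, at least 10 counts in every mouse 8, the study's limits 9, at least 2 UMIs of *Ighd* 9, suspected doublets left out 27, sums thinned to equal totals 7 and the arithmetic mid-parent 0, and leaving out each mouse 10 (NZW replicate 1) to 34 (NZBWF1 replicate 1), with 11 without NZB replicate 1. For NZB against NZW (213), DESeq2 gave 101, at least 10 counts 124, the study's limits 122, at least 2 UMIs of *Ighd* 81 and thinned sums 102, and leaving out each mouse 141 to 281. For the hybrid against NZB (109) the same settings gave 58, 54, 36, 25 and 58, and leaving out each mouse 53 to 124. For NZBWF1 against NZW (34), DESeq2 gave 22, no filter 54, at least 10 counts 17 and thinned sums 15, and leaving out each mouse 25 to 51. Cells with plasma cell genes left out gave 17, 221, 110 and 39 for the mid-parent, NZB against NZW, and the hybrid against NZB and NZW.

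Replicate numbers did not pair the mice (correlations of same-numbered mice -0.112 to 0.244). A replicate block gave 23, 218, 122 and 41 called genes, and changed the abundance of members for NZB against NZW to -0.81 (edgeR, adjusted p = 0.0426) and for NZBWF1 against NZW to -0.10.

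With B-lineage cells as the total, the log2 abundance of members was -0.24 for NZBWF1 against the parents, 0.53 for NZB against NZW and -0.50 for the hybrid against NZB. Against NZW the hybrid had -0.00847 with all barcodes as the total and -0.00458 within the study's limits. Leaving out each mouse gave -0.0769 to 0.59, -1.09 to -0.25, 0.24 to 1.13 and -0.40 to 0.27 for the mid-parent, NZB against NZW, and the hybrid against NZB and NZW. Without NZB replicate 1, NZBWF1 against NZB passed (1.13, edgeR, adjusted p = 0.0409). Genes in the interaction with small pre-B cells numbered 6 within the study's limits and 10 to 26 on leaving out mice for NZB against NZW. For NZBWF1 against the parents (0) they numbered 5 without a filter, 2 without suspected doublets, 4 within the study's limits and 0 to 15 on leaving out mice. Shares with a UMI passed for 3 genes in cells not thinned and 2 without suspected doublets. Depth measures passed for 0 to 1 on leaving out mice. In members per small pre-B cell, NZB stood at 2.43 to 2.95 times the mean of NZW and NZBWF1 on leaving out mice.

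Against the arithmetic mid-parent the log2 value turned to -0.0920 for *Ftl1-ps1*, -0.33 for *Ftl1*, -0.15 for *Apobec3*, -0.20 for *Mndal*, -0.61 for *Pld5* and -0.30 for *Rbm8a2*. *P2ry10* turned to -0.72 for NZB against NZW within the study's limits, and with at least 2 UMIs of *Ighd*, *Ltf* turned to -0.58 for NZB against NZW and *Ly6g* to 0.23 for NZBWF1 against NZB. Of 133 called values of named genes 51 were called under every alternative in which the gene was tested and 82 were lost under at least 1. A gene without an adjusted p in an alternative was not counted as lost there. Of the 3560 members 2339 held fewer than 1000 UMIs, and the NZB mice had the fewest members. The part of depth in these changes was not tested.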

Other observations

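Of 13 mitochondrial genes tested 2 passed between NZB and NZW, both lower in NZB (1.68% of all genes), and 11 did not pass (edgeR). They were picked after their values were seen, and the rule capped the share of their UMIs in every member. These tests therefore cannot separate a difference of strain from the choice of members, and nothing is read from the count or from the values below. *mt-Nd1* stood at 2388, 2279 and 2413 CPM in NZB, 3101, 3453 and 3241 in NZW and 2369.5, 2324 and 2220.5 in NZBWF1 in members. *mt-Co1* stood at 6531, 6847 and 7014 CPM in NZB, 9516, 10089.6 and 9848 in NZW and 10097, 8928 and 8499.7 in NZBWF1. Of 7 tested genes in a stretch of chromosome 6, *Gimap3* (1.07), *Gimap4* (0.94) and *Gimap6* (0.53), GTPases of lymphocyte survival, were higher in NZB (edgeR, log2 differences). This stretch, too, was drawn as a run of called genes, so its share of called genes is fixed by the way it was drawn.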
